A study of Homo sapiens with 12 samples.

Results

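RNA from DU145 cells that had received decitabine and triptolide together (DACTPL) was compared with RNA from vehicle-treated cells (Ctrl). The comparison rests on 6 of the 12 libraries of the study, 3 for each group, and covers all genes of the deposited table. DU145 is a prostate cancer line from a brain metastasis, and the labels give no genetic change of the line in any group. Ctrl cells received the solvent DMSO. DACTPL cells received triptolide at 2 nM and decitabine once a day for 3 days, and both groups were then kept without drug for 17 days before total RNA was taken. The decitabine dose is 33 nM in the sample labels and 3 nM in the treatment protocol, and this conflict could not be settled. The single-drug groups, triptolide at 2 nM (TPL) and decitabine at 33 nM (DAC), had 3 libraries each and shared the schedule. They are used below only to show where the combination differed. The labels did not say whether replicates were separate cultures, so the p-values measure the spread between these libraries, which may be technical.

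Decitabine, an analogue of deoxycytidine, enters DNA during replication and there traps DNA methyltransferases, so that methylation of CG dinucleotides is lost as cells divide. Methylated promoters silence many germline genes, imprinted alleles and endogenous repeats in somatic cells, and transcripts from repeats can form double-stranded RNA that the sensors of the interferon pathway bind. Triptolide is a plant diterpenoid that binds ERCC3 (XPB), a helicase of the general transcription factor TFIIH, and so slows initiation by RNA polymerase II.

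Library totals were 38.6, 29.1 and 47 M expected counts in Ctrl and 42.5, 32.4 and 31.5 M in DACTPL, values for single libraries being given from replicate 1 to replicate 3 throughout. The root mean square difference of log2 CPM (counts scaled to a common library total) over 13903 genes was 0.144 to 0.21 between Ctrl libraries, 0.181 to 0.25 between DACTPL libraries and 0.282 to 0.381 between the groups. Ctrl replicate 3 was the Ctrl library nearest to each DACTPL library. Small structural RNAs took 2.08, 2.18 and 2.35% of the counts in Ctrl and 3.05, 3.39 and 2.89% in DACTPL. The rank correlation of a library's deviation with gene length was taken across 14020 coding genes that are not independent replicates. It was 0.24, 0.17 and 0.25 in Ctrl and -0.21, 0.28 and 0.22 in DACTPL. DACTPL replicate 1 thus stood apart among these 6 libraries in this respect. It did not in the whole study, where the values were -0.39, -0.37 and 0.17 in TPL and -0.22, -0.32 and 0.08 in DAC. The 10 genes that DU145 cells are known to express, among them the keratins KRT7, KRT8 and KRT18, summed to 4775 to 4994 CPM in Ctrl and 4786 to 5192 CPM in DACTPL.

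Of 15890 genes tested, 2141 were called (13.5%) with the quasi-likelihood test of edgeR, at an adjusted p (Benjamini-Hochberg) below 0.05. Rises numbered 1373 (8.64% of the genes tested) and falls 768 (4.83%). The rises were larger than the falls. At least a 2-fold change was fitted for 440 rises and for 25 falls, and the median fold was 1.52 among rises and 1.27 among falls. All 3 DACTPL libraries lay above all 3 Ctrl libraries for 3051 genes (19.2%) and below them for 2594 (16.3%). The median log2 fold change of all tested genes was 0.01. In the authors' deposited table of this comparison, 2370 genes had an adjusted p below 0.05, 1439 of them higher and 931 lower. The 2008 genes called in both were 93.8% of the edgeR calls and 84.7% of the calls in the authors' deposited table. Without Ctrl replicate 1, Ctrl replicate 2 or DACTPL replicate 3, the number of calls was 1148, 1146 or 1382. On TPM as deposited, without rescaling, limma called 783 genes higher and 3981 lower with the median of all tested genes at -0.11, and on rescaled TPM 1297 higher and 757 lower.

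**Figure D1:**
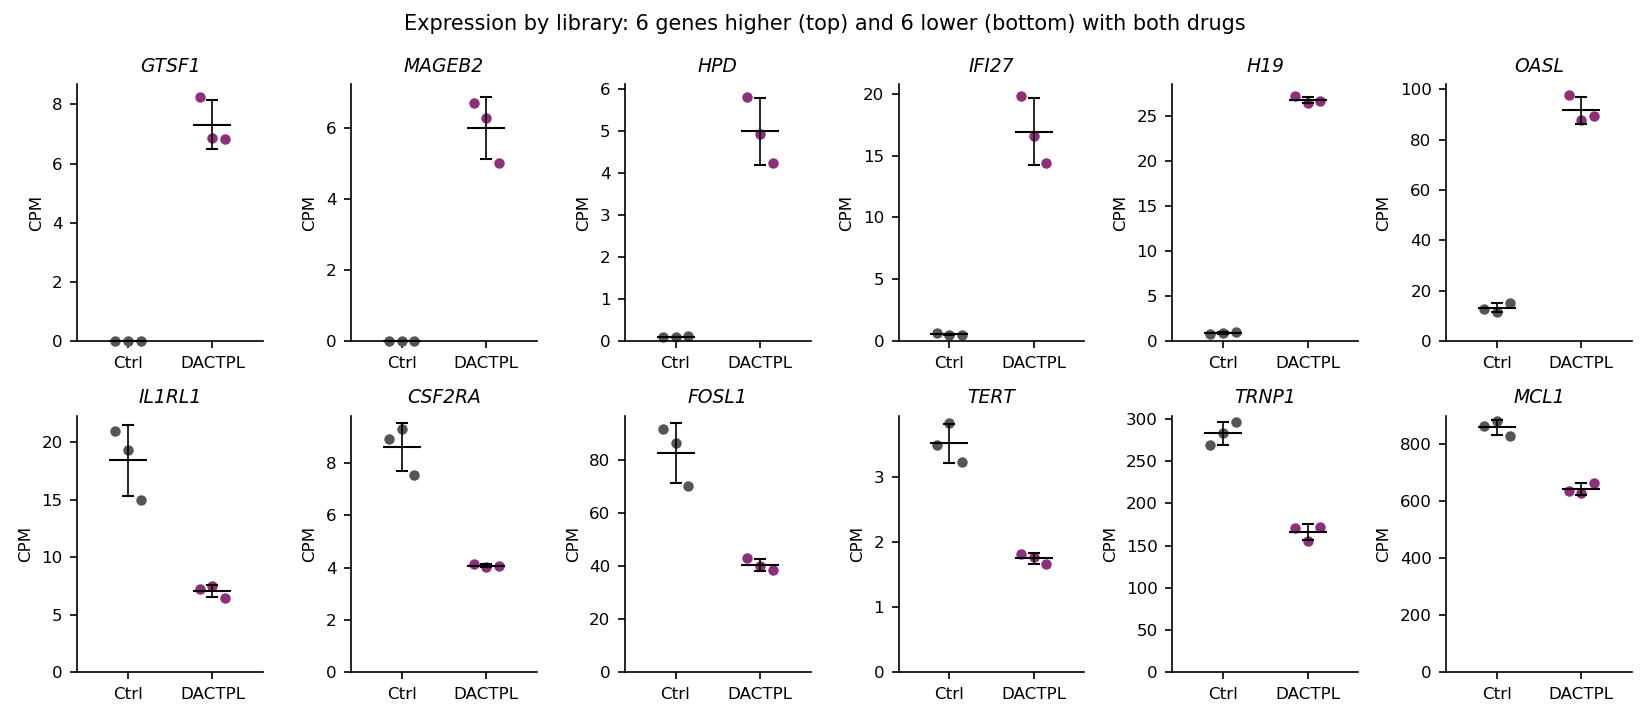
CPM of 12 genes in each library of Ctrl and DACTPL (points), with the mean and SD of the 3 libraries (bars). The 6 genes of the top row were higher and the 6 of the bottom row lower in all 3 DACTPL libraries than in any Ctrl library, and the falls were smaller in proportion than the rises.

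Genes were sorted by the mean level of both groups, a division chosen after the data were seen. Of 1945 genes at a mean of 0.1 to 1 CPM, 263 rose and 18 fell. Of 2139 genes at 100 CPM and over, 153 rose and 137 fell. Without Ctrl replicate 1, Ctrl replicate 2 or DACTPL replicate 3, the genes at 100 CPM and over had 63, 68 and 89 rises and 51, 49 and 66 falls, and without DACTPL replicate 1 they had 101 and 97. The same 3 fits that left out Ctrl replicate 1, Ctrl replicate 2 or DACTPL replicate 3 gave 6, 8 and 10 falls at 0.1 to 1 CPM. When genes were sorted by the Ctrl level alone, 128 rose and 150 fell at 100 CPM and over, so the order of rises and falls at high levels turned with the way of sorting. Of the genes tested, 126 lay below 0.1 CPM in Ctrl, and 113 of them rose. Genes this low in Ctrl passed the count filter through a group in which they were higher, so that count is a description. Only 3 tested genes had a mean of both groups below 0.1 CPM. The other genes this low in Ctrl are thus counted at the higher means, and the 263 rises at 0.1 to 1 CPM are a description as well.

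**Figure D2:**
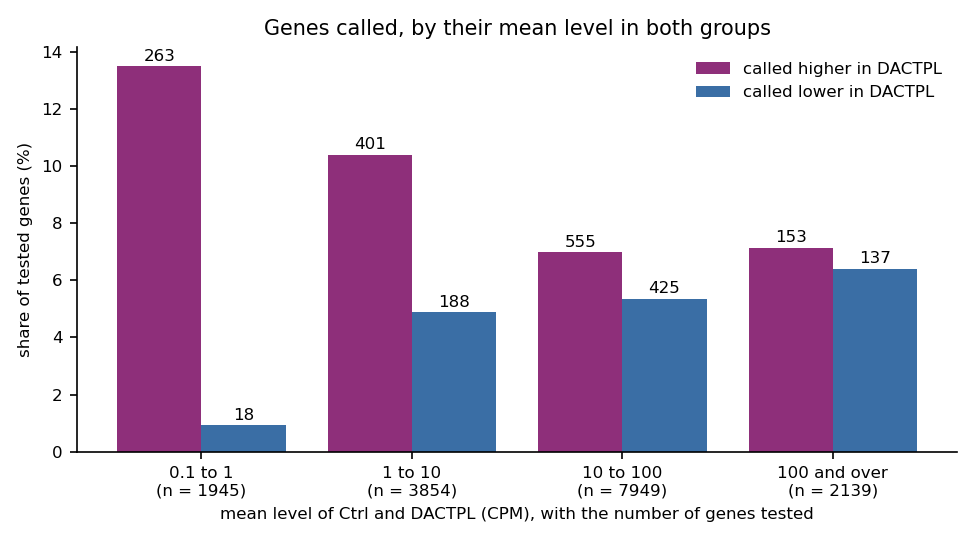
Share of tested genes called higher (purple) or lower (blue) in DACTPL, in percent, by the mean CPM of Ctrl and DACTPL, with the number of calls above each bar. Rises made up 13.5% of the genes at 0.1 to 1 CPM and 7.15% of those at 100 CPM and over, and falls 0.925% and 6.4%. The shares at low means include genes nearly absent in Ctrl, which passed the count filter through another group, and are a description.

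By gene class, of 14044 protein-coding genes, 1317 rose (9.38%) and 667 fell (4.75%). Of 1182 long noncoding RNAs, 21 rose (1.78%) and 65 fell (5.5%). Of 475 transcribed pseudogenes, 10 rose (2.11%) and 31 fell (6.53%). Over all tested genes the shares were 8.64% and 4.83%, so the last 2 classes differed more in their share of rises than in that of falls. Falls outnumbered rises among long noncoding RNAs in each fit that left out a Ctrl or DACTPL library. Without Ctrl replicate 1 or 2 the falls numbered 29 and 28, and without DACTPL replicate 1, 2 or 3 they numbered 40, 43 and 35. The pseudogenes had 10, 9 and 12 falls without Ctrl replicate 1, Ctrl replicate 2 or DACTPL replicate 3, and the protein-coding genes had 793, 789 and 945 rises and 277, 279 and 343 falls.

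The largest rises were of genes with no counts in vehicle-treated cells. A total of 27 genes had 0 counts in all 3 Ctrl libraries and at least 10 counts in each DACTPL library, and 0 genes showed the reverse. Of the 27 genes, the RefSeq reference classed 23 as protein-coding and placed 17 on chromosome X. It gave no class or chromosome for GAGE2D and GAGE8. The list of cancer-testis antigens, proteins normally made in male germ cells and silent in most somatic tissue, held 16 of the 27. GAGE8 and GAGE12E, of the GAGE family, were not on that list. For the single drugs, against the same Ctrl libraries, the same rule of counts gave 29 genes for DAC and 0 for TPL.

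GTSF1, a zinc finger protein that works with PIWI proteins in the silencing of transposons in germ cells, had 0 counts in every Ctrl library and 8.26, 6.85 and 6.82 CPM in DACTPL. Set against a lower limit of 3 counts in each library, the rise was at least 91.8-fold (edgeR adjusted p = 3.64e-07). MAGEB2, one of the MAGE group of antigens on chromosome X, had 0 counts in Ctrl and 6.7, 6.29 and 5.02 CPM in DACTPL, at least 75.4-fold higher (edgeR adjusted p = 1.07e-06). Neither gene had a count in the TPL libraries.

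The 250 bases before the RefSeq start of both genes are shown because their silence in Ctrl was complete, and capitals mark the CG dinucleotides at which methylation can sit (GRCh38.p14, 5′ to 3′ on the strand of the gene). GTSF1 lies on the minus strand at chr12:54473603-54473852 and MAGEB2 on the plus strand at chrX:30215313-30215562.
GTSF1: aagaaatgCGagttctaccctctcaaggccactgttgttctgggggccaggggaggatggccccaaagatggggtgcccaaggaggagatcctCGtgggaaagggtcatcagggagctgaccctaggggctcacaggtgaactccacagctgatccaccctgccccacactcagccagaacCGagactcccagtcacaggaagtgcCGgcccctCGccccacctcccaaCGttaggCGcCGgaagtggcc
MAGEB2: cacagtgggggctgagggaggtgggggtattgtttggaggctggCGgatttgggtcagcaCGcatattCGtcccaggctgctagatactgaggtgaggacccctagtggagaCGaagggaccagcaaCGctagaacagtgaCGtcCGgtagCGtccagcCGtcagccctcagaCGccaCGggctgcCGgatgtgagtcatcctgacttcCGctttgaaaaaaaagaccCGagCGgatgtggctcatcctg
The GTSF1 window holds 8 CG dinucleotides and the MAGEB2 window 15, against a median of 11 over 35116 RefSeq windows of the same length. In windows of 300 bases, which run 50 bases past the start, the counts were 10 and 21. The median there was 25 over the 77.7% of tested genes that had a window. Methylation was not measured in these libraries.

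GAGE2D, of the GAGE antigens, had 0 counts in Ctrl and 10.7, 10.3 and 7.65 CPM in DACTPL, at least 120.2-fold higher (edgeR adjusted p = 2.45e-06). MAGEA1, the founding member of the MAGE family, had 1.31, 1.18 and 1.06 CPM in DACTPL and was at least 14.8-fold higher, and MAGEA3 was at least 13.3-fold higher. The copies of these families are nearly identical, the counts of GAGE12C, GAGE12E and GAGE12G were the same numbers, and the division of reads between single members is uncertain. CTAG2 and SSX1, antigens of other families on chromosome X, were at least 9.19-fold and 9.14-fold higher.

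Of 100 cancer-testis antigens in the table, 34 passed the filter, of which 24 rose, 0 fell and 10 were not called. In 26 of the 34, the Ctrl libraries held fewer than 10 counts in all, so these entered the test through another group, and the count is a description. At least 10 counts were found for 8, 6 and 7 of the antigens in the Ctrl libraries and for 39, 35 and 31 in the DACTPL libraries. Their summed level went from 60.2 ± 2.36 CPM to 109.9 ± 6.31 CPM (SD, n = 3).

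Germline genes outside the antigen families included some of the largest ratios. Of 84 genes of germline development, meiosis and the piRNA pathway, 45 were tested, 15 rose and 2 fell. In 8 of the 45, the Ctrl libraries held fewer than 10 counts in all, and all 8 rose. These entered the test through another group, so the count of 15 is a description. Of the 37 with at least 10 counts in Ctrl, 7 rose and 2 fell, with a median log2 fold change of 0.04. Over all tested genes 8.64% rose and 4.83% fell. MAEL, a piRNA factor of mouse spermatocytes, had 0.0253, 0.0335 and 0.0209 CPM in Ctrl against 2.22, 2.21 and 2.05 CPM in DACTPL, a ratio of 84.7 (95% counting interval 28.6 to 414, from 3 counts over Ctrl). GPAT2, a mitochondrial acyltransferase that takes part in piRNA production in mouse germ cells, had 1 count over Ctrl and 122 over DACTPL, a ratio of 135 (95% counting interval 23.7 to 5365). TDRD1, a Tudor protein that binds methylated PIWI proteins in mice, had a ratio of 110.4 (95% counting interval 19.4 to 4405). DAZL, an RNA-binding protein that germ cells need, had 0 counts in Ctrl, so that its rise was at least 6.1-fold. LIN28B, which blocks maturation of the let-7 microRNAs, rose by 3.89 on the log2 scale (SE 0.35, edgeR adjusted p = 1.04e-05). PIWIL2, a PIWI protein, rose by 1.01 on the log2 scale (SE 0.23), and this call held in 3 of the 6 fits that left out a library. STK31, a kinase of the testis, and TDRKH, a Tudor protein of the piRNA pathway, had log2 fold changes of -0.65 and -0.25 and were called lower. Intervals and floors cover counting error only.

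Several highly changed genes belong to no germline list. HPD, the dioxygenase of tyrosine breakdown in the liver, had 0.101, 0.1 and 0.105 CPM in Ctrl against 5.81, 4.92 and 4.22 CPM in DACTPL, a 47.3-fold rise (log2 fold change 5.56, SE 0.24, edgeR adjusted p = 1.37e-08). CPS1, which starts the urea cycle, rose by 4.83 on the log2 scale (SE 0.20). FGG, the gamma chain of fibrinogen, had 1.92, 2.38 and 6.77 CPM in Ctrl against 25.5, 22.1 and 26.5 CPM in DACTPL, so the highest Ctrl library was well above the others (log2 fold change 2.69, SE 0.48, adjusted p = 0.00557). PDK4, a kinase that shuts off pyruvate dehydrogenase, rose 6.39-fold from 6.4 ± 0.747 to 40.9 ± 1.96 CPM (SD, n = 3). SPOCK2, a matrix proteoglycan, rose 5.37-fold from 5.3 ± 0.303 to 28.6 ± 0.627 CPM. AFAP1-AS1, a long noncoding RNA antisense to AFAP1, rose 7.44-fold from 3.38 ± 0.574 to 25.1 ± 3.78 CPM, with the limit that the strand setting of the authors' counting is not given in the sources used here. MUC5B, a secreted mucin, had 1 count over Ctrl and 0.467, 1.62 and 0.928 CPM in DACTPL, the widest spread among these genes.

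H19, an imprinted noncoding RNA made from the maternal allele, had 0.809, 0.904 and 0.961 CPM in Ctrl against 27.2, 26.5 and 26.7 CPM in DACTPL. The 29.8-fold rise (log2 fold change 4.90, SE 0.13, edgeR adjusted p = 1.98e-10) was far beyond the spread of either group. Its upstream window at chr11:2001267-2001516 on the minus strand is shown with CG dinucleotides in capitals, since it is short of them beside the promoters above.
H19: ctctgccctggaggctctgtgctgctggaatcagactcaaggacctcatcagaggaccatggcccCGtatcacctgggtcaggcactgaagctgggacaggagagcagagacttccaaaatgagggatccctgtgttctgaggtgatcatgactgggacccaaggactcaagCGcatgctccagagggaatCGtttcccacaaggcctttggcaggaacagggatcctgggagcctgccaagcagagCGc
The window holds 4 CG dinucleotides, and 70.7% of all RefSeq windows hold at least as many. Of 37 imprinted genes tested, 8 rose and 2 fell, beside 8.64% and 4.83% of all tested genes. IGF2, the neighbour of H19 and a growth factor made from the paternal allele, rose by 1.71 on the log2 scale (SE 0.38) from below 0.4 CPM in every Ctrl library. DIRAS3, a growth-suppressing small GTPase, rose from 0.758, 0.669 and 0.815 CPM to 3.41, 3.11 and 2.78 CPM. PEG10, derived from a retrotransposon and well expressed in Ctrl, rose from 138, 134 and 132 CPM to 165, 222 and 185 CPM. MKRN3, made from the paternal allele in the Prader-Willi region, had 0 counts in Ctrl, and its rise was at least 4.83-fold. ATP10A and ZDBF2 had log2 fold changes of -0.39 and -0.26 and were called lower.

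Interferon-stimulated genes had the most rises of the 30 gene lists. Of 86 such genes, 75 were tested, 54 rose and 0 fell, against 8.64% of all genes called higher. Their median log2 fold change was 0.69, against 0.01 for all tested genes. In 60 of them the 3 DACTPL libraries lay above the 3 Ctrl libraries, and in 1 below, against 19.2% and 16.3% of all genes tested. Of the 54 calls, 45 held in each of the 6 fits that left out a library, and those fits called 45 to 56 members higher. Summed over the list, the libraries had 2212, 2186 and 2418 CPM in Ctrl against 3396, 3435 and 3403 CPM in DACTPL.

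IFI27, an interferon-induced protein of the mitochondrial membrane and the member with the largest rise, had 0.607, 0.502 and 0.502 CPM in Ctrl against 19.8, 16.6 and 14.4 CPM in DACTPL (log2 fold change 4.97, SE 0.16, edgeR adjusted p = 5.25e-10). OASL, which resembles the oligoadenylate synthetases and raises RIG-I signalling, had 12.8, 11.6 and 15.2 CPM in Ctrl against 97.6, 88 and 89.2 CPM in DACTPL, a 6.9-fold rise. DDX60, a helicase reported to aid viral RNA sensing, rose 5.99-fold from 12.6 ± 2.87 to 75.9 ± 3.11 CPM (SD, n = 3). The groups of these 3 genes did not overlap, which the rule that named them required.

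The proteins of the pathway can be ordered by role. Among the sensors of double-stranded RNA, DDX58 (RIG-I) rose by 0.87, IFIH1 (MDA5) by 0.71 and their regulator DHX58 (LGP2) by 2.09 on the log2 scale. Among the transcription factors, IRF7 rose by 1.17, IRF9 by 0.71 and IRF1 by 0.35. STAT2, a subunit of the ISGF3 complex, had a log2 fold change of 0.07 and was not called. Among the effectors, IFIT1, IFIT2 and IFIT3, which bind foreign RNA ends or each other, rose by 2.03, 2.35 and 2.47, and the GTPases MX1 and MX2 by 1.49 and 1.71. BST2, which tethers budding virus particles, rose by 3.46 from a mean of 0.154 CPM. CMPK2, a mitochondrial nucleotide kinase that is also on the list of nucleoside handling, had 3 counts over Ctrl and 75 over DACTPL.

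Members that were not called included USP18 and UBE2L6, enzymes of ISG15 removal and conjugation, at log2 fold changes of 0.13 and 0.02. TRIM25, ADAR and GBP3 had log2 fold changes of 0.08, 0.25 and -0.56 and did not pass either. TNFSF10 (TRAIL), a death ligand, had 15.1, 18.2 and 34.1 CPM in Ctrl against 54.4, 46.1 and 57.4 CPM in DACTPL. Its groups did not overlap, but the Ctrl spread was wide and the adjusted p was 0.0566 with edgeR. The interferon genes themselves stayed near the limit of detection. IFNB1 had 1 count over Ctrl and 4 over DACTPL, and IFNL1 had 1 and 16, a ratio of 17.7 (95% counting interval 2.75 to 741), and neither passed the filter.

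**Figure D3:**
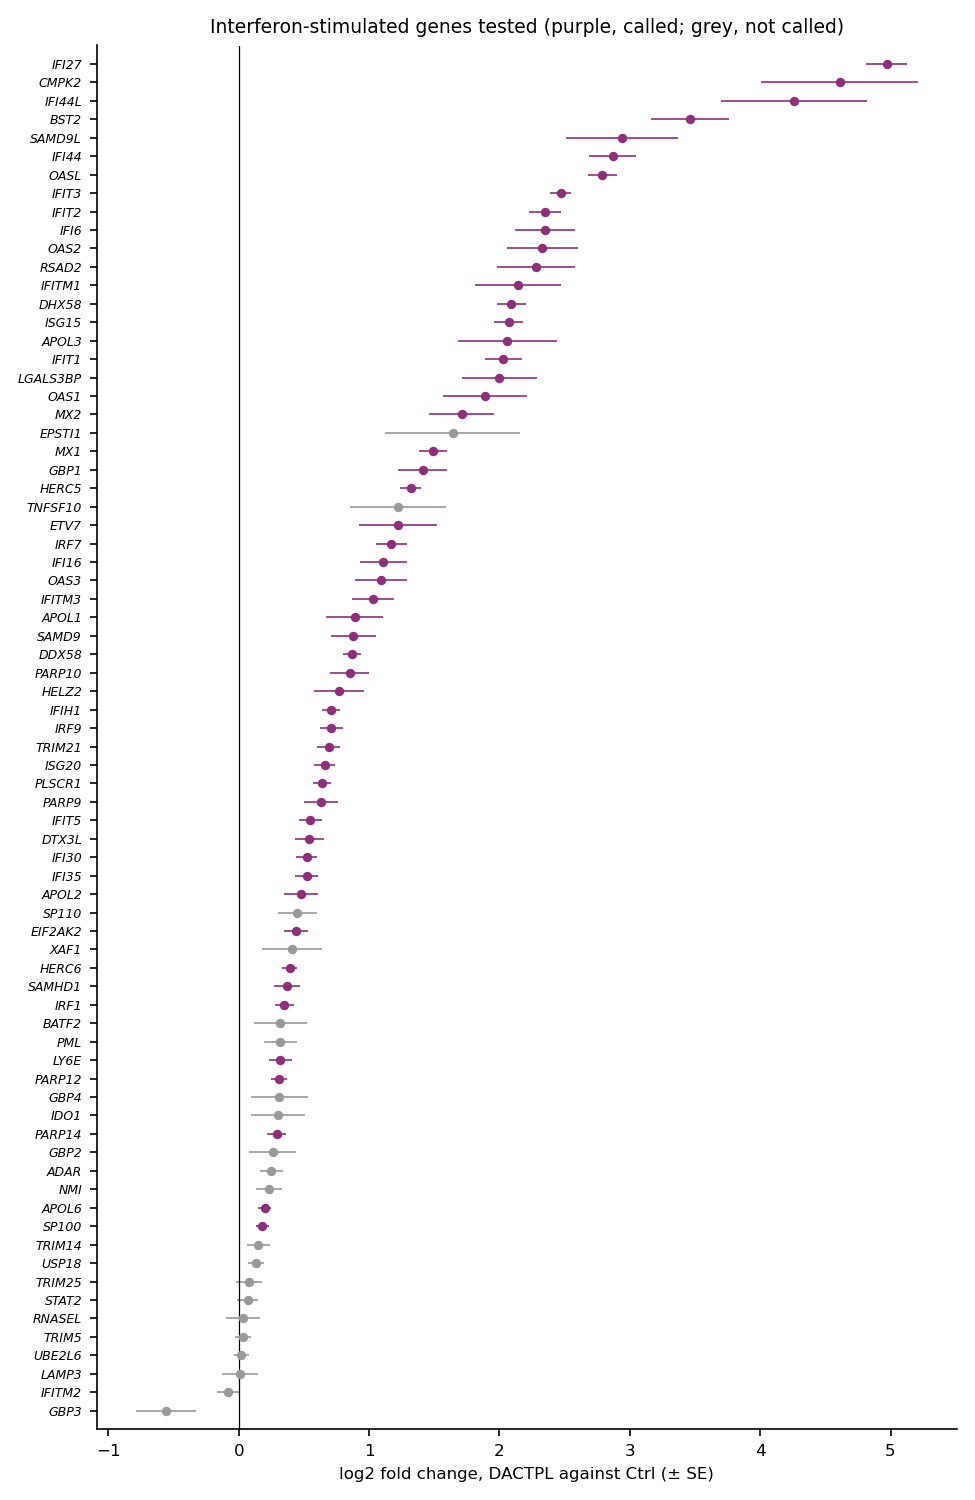
Log2 fold change of DACTPL against Ctrl with its SE for all but 1 of the 75 interferon-stimulated genes tested, ordered by size, called members in purple and others in grey. IFI27 leads at 4.97, the called members reach down to 0.18, and GBP3 is lowest at -0.56 without a call.

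The interferon-stimulated response element, to which ISGF3 and the IRF proteins bind, was searched as GAAA, any 2 bases and GAAA on both strands of the 250 bases before the start. Capitals mark the matches in 3 effector genes. The ISG15 window lies at chr1:1013247-1013496 on the plus strand, that of IFIT1 at chr10:89392373-89392622 on the plus strand and that of IFI6 at chr1:27672193-27672442 on the minus strand (GRCh38.p14).
ISG15: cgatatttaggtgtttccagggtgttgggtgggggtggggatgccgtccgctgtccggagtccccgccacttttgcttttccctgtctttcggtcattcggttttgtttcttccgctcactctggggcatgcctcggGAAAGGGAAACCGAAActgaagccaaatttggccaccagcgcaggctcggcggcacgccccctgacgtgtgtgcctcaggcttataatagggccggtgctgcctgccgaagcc
IFIT1: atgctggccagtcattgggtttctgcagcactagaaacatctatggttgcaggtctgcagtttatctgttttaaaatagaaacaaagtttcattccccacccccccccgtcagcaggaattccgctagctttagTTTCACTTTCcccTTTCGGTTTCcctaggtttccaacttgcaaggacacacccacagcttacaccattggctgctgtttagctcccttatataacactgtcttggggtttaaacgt
IFI6: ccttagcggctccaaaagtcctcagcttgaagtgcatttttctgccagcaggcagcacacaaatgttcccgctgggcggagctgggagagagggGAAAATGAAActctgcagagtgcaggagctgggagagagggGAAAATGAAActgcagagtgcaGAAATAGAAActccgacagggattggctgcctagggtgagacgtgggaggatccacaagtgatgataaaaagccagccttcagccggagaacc
ISG15 holds 2 overlapping matches, IFIT1 holds 2 on the opposite strand and IFI6 holds 3, and 3.02% of the 35116 RefSeq windows hold at least 1. OAS1, which rose by 1.89 on the log2 scale, has no match to this pattern in its window. The window does hold GAAACGAAA near its end, whose shorter spacer the search could not find. ISG15, a ubiquitin-like protein, had 14.3, 15.2 and 18.2 CPM in Ctrl against 69.9, 67.7 and 63.4 CPM in DACTPL. IFIT1 had 12.8, 13.1 and 17.8 CPM in Ctrl against 62.4, 55 and 62.1 CPM in DACTPL. IFI6, a mitochondrial protein that protects cells from death, had 5.97, 5.86 and 9.55 CPM in Ctrl against 40.3, 34.4 and 35.5 CPM in DACTPL. In each of the 3 genes every DACTPL library was above every Ctrl library, and Ctrl replicate 3 was the highest of the Ctrl libraries. A comparison of promoter content between called and other genes is void, because 77.7% of the tested genes and 72% of the tested interferon list had a window.

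Of 24 tested genes of antigen presentation on MHC class I, 14 rose and 0 fell, with a median log2 fold change of 0.30. Over all tested genes 8.64% rose and 4.83% fell. B2M, the shared light chain, had 487, 542 and 588 CPM in Ctrl against 818, 739 and 872 CPM in DACTPL (log2 fold change 0.59, SE 0.09, edgeR adjusted p = 7.97e-04). HLA-B and HLA-C, heavy chains, rose by 0.62 and 0.51. TAP1, the peptide transporter, and PSMB9, an immunoproteasome subunit, rose by 0.31 and 0.56. NLRC5, the transactivator of these genes, rose by 0.38, a call that held in 0 of the 6 fits that left out a library. HLA genes are near-identical in parts, so reads may be divided between them. Without DACTPL replicate 1 or Ctrl replicate 1 the rises numbered 8 and 9, and 8 of the 14 calls held in all 6 fits that left out a library.

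NF-kB targets and cytokines moved both ways. Of 39 tested, 7 rose and 3 fell with a median of 0.01, beside 8.64% and 4.83% of all tested genes. PTGS2 (cyclooxygenase-2) rose 2.84-fold, and the cytokine IL15 and the chemokine CCL5 rose by 1.06 and 0.75 on the log2 scale. TNFAIP3 (A20), which ends NF-kB signalling, had 40.1, 38.4 and 29.6 CPM in Ctrl against 21.3, 25.8 and 18.8 CPM in DACTPL (log2 fold change -0.71, SE 0.17, edgeR adjusted p = 0.0192). IL11 had a log2 fold change of -0.59. The calls of TNFAIP3 and IL11 held in 2 and 1 of the 6 fits that left out a library. The list had 4, 3, 4 and 4 rises without Ctrl replicate 1, Ctrl replicate 2, DACTPL replicate 1 and DACTPL replicate 2, and 0 falls in each of these fits except the last, with 1, and 0 without DACTPL replicate 3.

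Among the named falls, IL1RL1 had the largest fold. IL1RL1, the receptor of interleukin-33, had 21, 19.3 and 15 CPM in Ctrl against 7.21, 7.53 and 6.46 CPM in DACTPL, 2.6-fold lower (log2 fold change -1.38, SE 0.25, edgeR adjusted p = 0.00413). CSF2RA, the alpha chain of the GM-CSF receptor, had 8.92, 9.3 and 7.55 CPM in Ctrl against 4.15, 4.02 and 4.06 CPM in DACTPL. TERT, the catalytic subunit of telomerase, had 3.49, 3.82 and 3.22 CPM in Ctrl against 1.82, 1.77 and 1.66 CPM in DACTPL, 1.99-fold lower. The calls of all 3 genes held in each fit that left out a library. The rule that named them admitted only genes whose groups did not overlap.

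The other named falls lay between these or were smaller. PADI1, which converts arginine to citrulline in skin proteins, had a log2 fold change of -1.36 (SE 0.18), next to that of IL1RL1. SH3TC2, an adaptor of endosomal recycling, and KIF26B, an atypical kinesin, had log2 fold changes of -1.18 and -1.06. BCL2A1, an inhibitor of apoptosis, had one of -1.18, and its call held in 2 of the 6 fits that left out a library. UPP1, the uridine phosphorylase, had 173, 173 and 131 CPM in Ctrl against 83.8, 83.3 and 62.9 CPM in DACTPL (log2 fold change -1.05, SE 0.27, adjusted p = 0.0324), and its call held in 1 of those fits. SFTA1P, a noncoding RNA, had a log2 fold change of -1.04 and held in 2 of them. TRNP1, a nuclear protein first described in mouse neural progenitors and the most abundant of these genes, had 269, 283 and 296 CPM in Ctrl against 171, 155 and 172 CPM in DACTPL, 1.71-fold lower (edgeR adjusted p = 4.33e-06).

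FOSL1 (FRA1), a subunit of the AP-1 transcription factor that is stabilised by ERK signalling, had 91.5, 86.2 and 70 CPM in Ctrl against 43, 40.2 and 38.5 CPM in DACTPL. It was 2.03-fold lower (log2 fold change -1.02, SE 0.14, edgeR adjusted p = 5.23e-04). The call held in each fit that left out a library. Of 32 genes of ERK output and feedback, 5 fell and 2 rose, beside 4.83% and 8.64% of all tested genes. DUSP5, a nuclear ERK phosphatase, and PHLDA1 had log2 fold changes of -0.57 and -0.54, while DUSP4, a related phosphatase, rose by 0.78. The call of PHLDA1 held in 2 of the 6 fits that left out a library, and the list had 2 falls without Ctrl replicate 1, Ctrl replicate 2 or DACTPL replicate 3 and 3 without DACTPL replicate 1. DUSP6, a cytoplasmic ERK phosphatase, had a log2 fold change of 0.03 and was not called.

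Genes tied to the drugs themselves are given beside the 13.5% called among all tested genes, and their share was near it. DNMT1, the maintenance methyltransferase that decitabine traps, had 238, 234 and 232 CPM in Ctrl against 227, 248 and 237 CPM in DACTPL. Its log2 fold change was 0.01 (SE 0.06, edgeR adjusted p = 0.899). DNMT3A had a log2 fold change of 0.08 (SE 0.10). DNMT3B, the other de novo methyltransferase, rose from 6.75, 6.26 and 5.87 CPM to 8.66, 8.22 and 8.8 CPM (log2 fold change 0.44, SE 0.08, adjusted p = 0.00237). Of 25 writers, readers and erasers of DNA methylation tested, 2 rose and 1 fell, the second rise being TDG, a glycosylase that removes oxidised methylcytosine (0.27). DCK, the kinase that activates decitabine, had 27.1, 30.8 and 26.3 CPM in Ctrl against 27.6, 29.6 and 28 CPM in DACTPL, with a log2 fold change of 0.02 (SE 0.13). DCTPP1, a pyrophosphatase that degrades deoxycytidine triphosphate analogues, had one of 0.14 (SE 0.14, adjusted p = 0.57). Of 34 genes of nucleoside uptake and metabolism, 3 rose and 1 fell, led by CMPK2 and the exporter ABCC4 (0.44).

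ERCC3, the target of triptolide, had 41.3, 40.2 and 38.5 CPM in Ctrl against 38.8, 36.4 and 36.7 CPM in DACTPL. Its log2 fold change was -0.10 (SE 0.05, edgeR adjusted p = 0.238). Of 30 genes of TFIIH and RNA polymerase II, 4 rose and 1 fell, with POLR2L and POLR2F, small shared polymerase subunits, at 0.41 and 0.37. Of 30 short-lived transcripts reported to respond to triptolide, 2 rose and 3 fell. MCL1, an anti-apoptotic protein with a short-lived messenger, had 866, 882 and 829 CPM in Ctrl against 635, 629 and 666 CPM in DACTPL (log2 fold change -0.42, SE 0.05, adjusted p = 1.93e-04). CFLAR, which blocks caspase-8, had 263, 260.5 and 249.5 CPM in Ctrl against 180.3, 205 and 199.7 CPM in DACTPL. The groups were apart for both genes. MYC and the p53 regulator MDM2 had log2 fold changes of 0.19 and 0.04 and were not called.

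Of 61 replication-dependent histone genes tested, 23 rose and 0 fell, the median log2 fold change was 0.27, and in 43 of them the 3 DACTPL libraries were above the 3 Ctrl libraries (19.2% of all genes tested). HIST1H1T, the testis linker histone, had 0.278, 0.201 and 0.397 CPM in Ctrl against 1.73, 1.49 and 1.63 CPM in DACTPL (log2 fold change 2.41, SE 0.26, edgeR adjusted p = 6.47e-05). HIST1H1D and HIST1H2AK rose by 0.80 and 0.85. These short transcripts mostly lack poly(A) tails, and the small structural RNAs had 17 rises and 0 falls among 83 tested, with 10 rises without Ctrl replicate 2 or DACTPL replicate 2. After the trend on gene length was taken off, the histone list had 23 rises and 1 fall with a median of 0.16, and the small structural RNA rises 4. The 82 ribosomal protein genes, also short, had 6 rises and 0 falls, and 2 rises and 7 falls once the trend was off. Over all tested genes, with the trend left in, 8.64% rose and 4.83% fell. The part of transcript length in these lists was otherwise not tested.

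Adhesion, matrix and metabolic genes were mixed, and their counts stand beside 8.64% rises and 4.83% falls over all tested genes. Of 52 mesenchymal and matrix genes, 17 rose and 4 fell. S100A4, a calcium-binding protein of motile cells, had 4.73, 4.89 and 6.58 CPM in Ctrl against 25.3, 22.4 and 25.3 CPM in DACTPL (log2 fold change 2.16, SE 0.12, edgeR adjusted p = 8.57e-08). FBN1 and COL7A1, matrix proteins, rose by 0.91 and 0.86. AXL, a receptor tyrosine kinase and one of the most abundant members, had 1187, 1185 and 979.9 CPM in Ctrl against 736, 721 and 642 CPM in DACTPL (log2 fold change -0.67, SE 0.14, adjusted p = 0.00817). PLAU (urokinase) had a log2 fold change of -0.57. The summed level of the list was 5493 ± 152 CPM in Ctrl and 5008 ± 122 CPM in DACTPL (SD, n = 3), so the list's sum and its median of 0.23 differ in sign. Without Ctrl replicate 1 or 2 the rises numbered 11 and 9. Of 49 keratin and epithelial junction genes, 10 rose and 5 fell, with 2 falls without Ctrl replicate 1, Ctrl replicate 2 or DACTPL replicate 3. KRT17, a keratin of basal cells, had 0.0253, 0.0669 and 0.0418 CPM in Ctrl against 2.12, 1.84 and 1.47 CPM in DACTPL, and KRT81, a hair keratin, rose by 1.40.

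Among 45 genes of hypoxia and glycolysis there were 9 rises and 1 fall, with 5 rises without Ctrl replicate 1 or 2. ALDOC, an aldolase, had 1.59, 1.54 and 1.23 CPM in Ctrl against 15.7, 12 and 13.9 CPM in DACTPL, a 9.61-fold rise (edgeR adjusted p = 3.37e-08). SLC2A3, a glucose transporter, rose 5.3-fold from 1.55 ± 0.191 to 8.12 ± 0.549 CPM (SD, n = 3). VEGFA, a defining hypoxia target, went the other way, with 388, 383 and 414 CPM in Ctrl against 328, 327 and 337 CPM in DACTPL. Its call held in 0 of the 6 fits that left out a library. Of 48 genes often hypermethylated in prostate tumours, 7 rose and 3 fell, beside 8.64% and 4.83% of all tested genes. Without Ctrl replicate 1, Ctrl replicate 2, DACTPL replicate 1 or DACTPL replicate 3 the falls numbered 0 and without DACTPL replicate 2 they numbered 1, while without Ctrl replicate 3 the rises numbered 11. GSTP1, the best known of them, is expressed in DU145 and rose by 0.36, while TFPI2, a protease inhibitor, rose from 24.1, 23.5 and 20.1 CPM to 89.9, 83.9 and 80.2 CPM. MCAM, an adhesion molecule, rose by 1.78 on the log2 scale.

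Counts of the stress, p53, repair and cell cycle lists stand beside 8.64% rises and 4.83% falls over all tested genes. Of 40 genes of the ATF4 and unfolded protein responses, 6 rose and 4 fell. There were 2 falls without Ctrl replicate 1, Ctrl replicate 2 or DACTPL replicate 3. ATF5 rose by 1.31 (SE 0.12), while DDIT3 (CHOP) and PPP1R15A (GADD34), which restores translation after stress, had log2 fold changes of -0.69 and -0.68. Of 40 p53 targets, 6 rose and 5 fell, but the rises numbered 1 or 2 in each fit that left out a library. The falls numbered 3, 2 and 8 without Ctrl replicate 1, Ctrl replicate 2 or Ctrl replicate 3. CDKN1A (p21) had a log2 fold change of -0.03 without a call. DU145 carries mutated p53. Of 43 genes of homologous recombination and the Fanconi anaemia pathway, 7 fell and 1 rose, with a median of -0.12. RAD51D, a recombination protein, had 15.3, 14.7 and 13.9 CPM in Ctrl against 11.4, 11.2 and 9.89 CPM in DACTPL (log2 fold change -0.43, SE 0.08, edgeR adjusted p = 0.00445). It was the only fall of that list whose call held in all 6 fits that left out a library, and the list had 1 fall without Ctrl replicate 1 or 2 and 3 without DACTPL replicate 1 or 3. Of 65 mitotic and replication genes, 2 rose and 2 fell, and 0 of these calls held in all 6 fits. Heat shock chaperones had 5 rises and 0 falls among 30 tested, cholesterol genes 3 and 1 among 42, and metallothioneins 2 and 0 among 8. The heat shock list had 1 rise without Ctrl replicate 1 or 2.

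**Figure D4:**
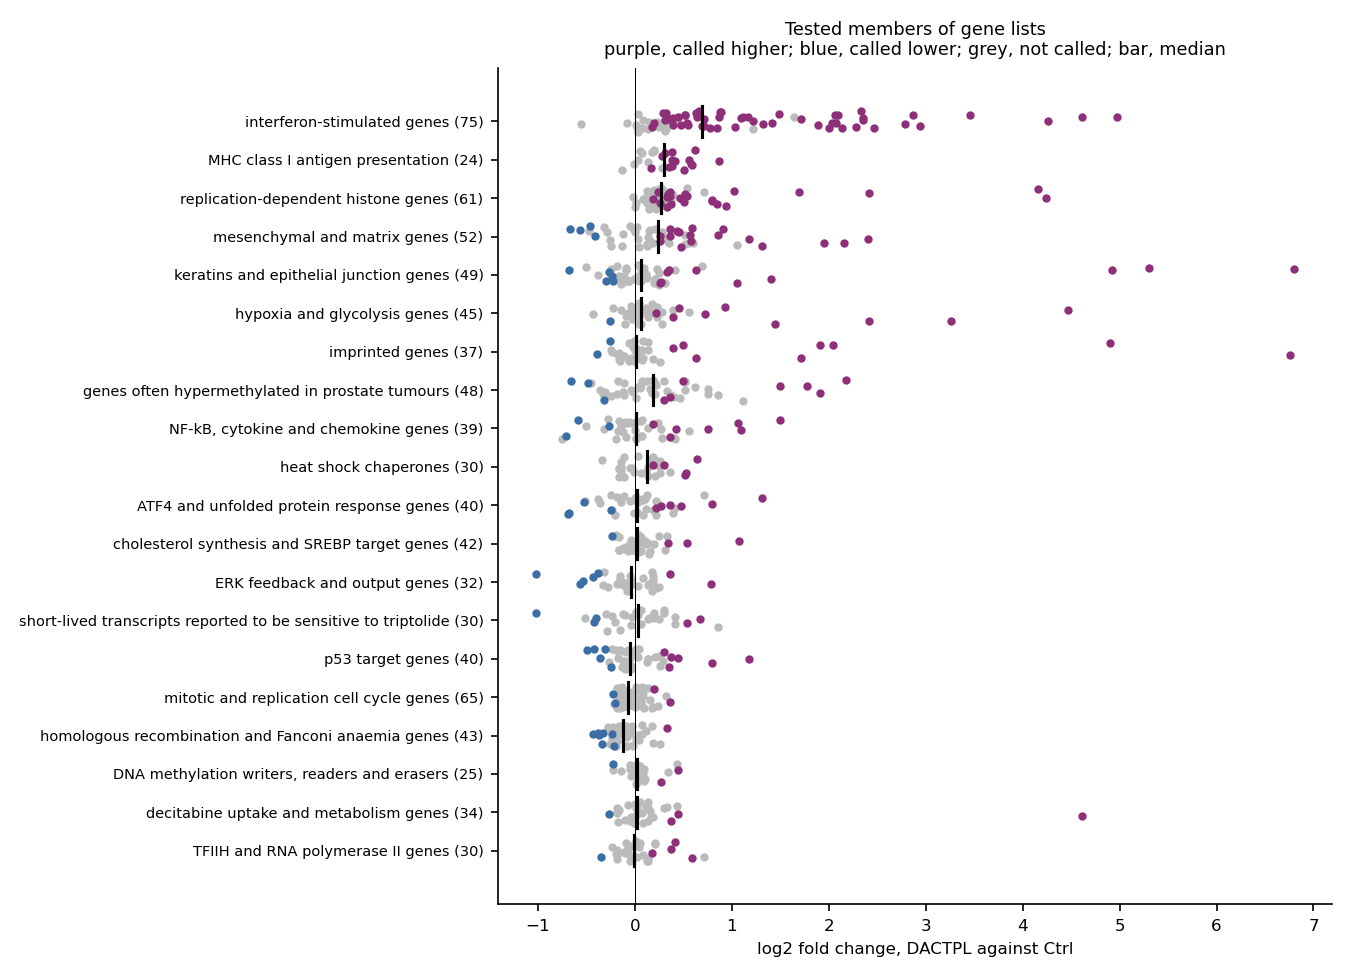
Log2 fold change of DACTPL against Ctrl for each tested member of 20 gene lists (points), with calls in colour and the list median as a black bar. The interferon and MHC class I lists lie to the right of 0 with medians of 0.69 and 0.30, while the cell cycle, DNA methylation and TFIIH lists are centred near 0.

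Markers of other cell types were low in both groups. Of 14 blood markers, 3 (HBB, HBA1 and CD163) had 0 counts, and the list summed to 43.9 to 48.9 CPM in Ctrl and 35.2 to 36.5 CPM in DACTPL, most of it CD68. PTPRC (CD45) had 24 counts over Ctrl and 65 over DACTPL and rose, a call lost without Ctrl replicate 1, while CD68 fell by 0.47 on the log2 scale. The 12 fibroblast and endothelial markers summed to 9.51 to 12.7 CPM in Ctrl and 16.7 to 19.1 CPM in DACTPL, with CDH5, PECAM1 and PDGFRB called higher, calls that held in 6, 1 and 5 of the 6 fits that left out a library. THY1, DCN and LUM had 0 counts in Ctrl and 4, 1 and 14 in DACTPL. The 12 luminal prostate markers summed to 76.1 to 82.7 CPM in Ctrl and 91 to 103 CPM in DACTPL, with HPN and STEAP2 (held in 1 of the 6 fits that left out a library) called higher and FOLH1 at 0 counts. The 10 neuroendocrine markers had 0 calls, and INSM1 had 0 counts. The part of these cell types in the rises was not tested.

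The single-drug groups show where the combination differed. Against the same Ctrl libraries, 996 genes rose (6.27%) and 570 fell (3.59%) in DAC, 9.86% together, and 267 rose (1.68%) and 125 fell (0.787%) in TPL, 2.47% together. With the replicate number as a block, the calls numbered 2574 in DAC, 1288 in TPL and 3396 in DACTPL, though the numbers did not pair all libraries. The interferon list had 54 rises in DACTPL, 38 in DAC and 3 in TPL, with median log2 fold changes of 0.69, 0.50 and 0.14. The cancer-testis list had 24, 25 and 0, and the MHC class I list 14, 8 and 3. These comparisons share their Ctrl libraries, so the counts stand side by side and are not tests of a difference. Between DACTPL and DAC themselves, 1 gene of the interferon list was called, and 0 of the cancer-testis and MHC class I lists.

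Tested directly, DACTPL and DAC differed in 5 of 15890 genes (0.0315%) with edgeR, 3 higher (0.0189%) and 2 lower (0.0126%) in DACTPL. DESeq2 called 44 higher and 40 lower, and 2419 genes had an unadjusted p below 0.05 with edgeR. Each of the 5 had an adjusted p of 0.0279. IFI27 had 9.62, 9.49 and 10.5 CPM in DAC against 19.8, 16.6 and 14.4 CPM in DACTPL (log2 fold change 0.78, SE 0.11). CPS1 had 3.53, 3.69 and 4.68 CPM in DAC against 8.1, 7.19 and 8.45 CPM in DACTPL (0.99, SE 0.14). MAPK4, an atypical MAP kinase, had 2.4, 2.34 and 2.91 CPM in DAC against 5.32, 4.98 and 4.99 CPM in DACTPL (0.99, SE 0.14).

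TAGLN (transgelin), an actin-binding protein, had 10.5, 9.91 and 9.27 CPM in DAC and 6.09, 6.07 and 6.75 CPM in DACTPL. Its Ctrl libraries, at 6.29, 7.03 and 7.36 CPM, were close to DACTPL, and its log2 fold change against Ctrl was -0.13 (adjusted p = 0.384). DUSP5 had 81.4, 84.4 and 81.4 CPM in DAC and 59.6, 59.7 and 62.4 CPM in DACTPL. It was lower in TPL as well, at 70.3, 69.8 and 65.1 CPM, and DACTPL did not differ from TPL past the threshold (log2 fold change -0.17, SE 0.06, adjusted p = 0.0921). The number of calls between these groups was 0 without DAC replicate 1, DACTPL replicate 1 or DACTPL replicate 2, 1 without DAC replicate 2 or DACTPL replicate 3, and 11 without DAC replicate 3.

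**Figure D5:**
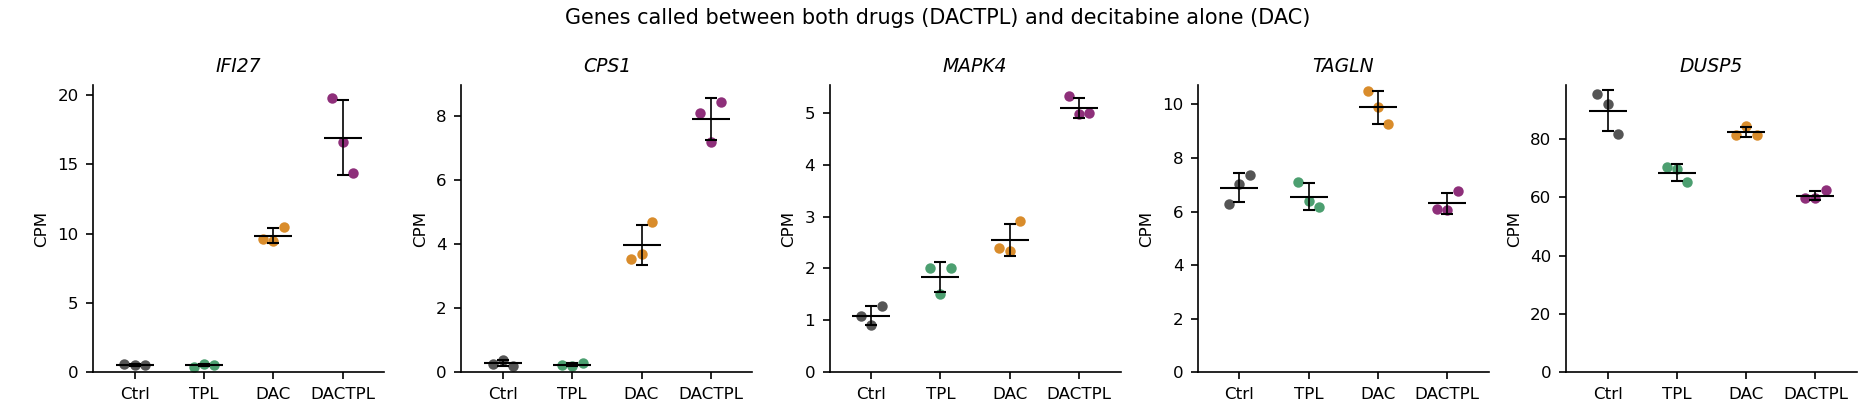
CPM of the 5 genes called between DACTPL and DAC in each library of the 4 groups (points), with mean and SD of 3 libraries (bars). IFI27, CPS1 and MAPK4 are highest in DACTPL, TAGLN is highest in DAC at 9.27 to 10.5 CPM, and DUSP5 is lowest in DACTPL at 59.6 to 62.4 CPM.

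Against TPL, 1101 genes rose (6.93%) and 570 fell (3.59%) in DACTPL, 10.5% together. Without TPL replicate 1, TPL replicate 2 or DACTPL replicate 2 the calls numbered 1040, 955 and 981, and without TPL replicate 3 they numbered 3285. The rises were led by GAGE2D, GTSF1 and MAGEB2, which had 0 counts in TPL. Of the interferon list 46 members rose and 1 fell, and of the small structural RNAs 17 fell and 0 rose. The latter were highest in TPL, with mean sums of 21524 CPM in Ctrl, 42529 CPM in TPL and 31213 CPM in DACTPL. Against Ctrl, 29 of them rose and 0 fell in TPL, and 17 rose and 0 fell in DACTPL. HP (haptoglobin), named by the rule for falls against TPL, had 1.42, 1.14 and 3.07 CPM in Ctrl against 0.933, 0.654 and 0.864 CPM in DACTPL, and was not called against Ctrl (adjusted p = 0.166).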

How the data were processed

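Total RNA of 12 DU145 libraries was sequenced as stranded 100-base paired reads, per the labels' protocols. The deposited expected counts and TPM (transcript abundance scaled by length and library total) come from the authors, and the submitters' processing notes name RSEM 1.2.09, hg19, DESeq2 and R 4.0.4. The authors' deposited comparison tables hold log2 fold changes, p-values and test scores. The expected counts (64.3% whole within 0.005) were rounded. All 12 libraries entered a single edgeR 4.0.16 quasi-likelihood fit in R 4.3.3 (TMM, filterByExpr, 4 groups, Benjamini-Hochberg adjustment), leaving 15890 of 26341 genes, 5761 having no counts. Alternatives used DESeq2 1.42.0, limma 3.58.1 on log2(TPM + 1) or log2(TPM + 0.1), other filters, a replicate block, a length trend and libraries left out, and rescaled TPM, a fit without small structural RNAs, sorting by the mean level and the block for the single drugs were added after seeing the data. The script was tested on simulated data. Genes were named by fixed rules of size: the 12 largest rises and falls of at least 1 CPM and the 8 of at least 20 CPM without overlap, the 5 largest called members of each list, the 5 largest between drug groups, the 10 highest of the switched-on genes and the drug-related genes. Other members of the lists were named after their values were seen. The members and lists were chosen with earlier results of these data known. Of 28 symbols turned to dates, 27 were resolved, and 25698 symbols matched RefSeq. Sequences are RefSeq's on GRCh38.p14, used for no coordinate of the deposited tables. A few genes are not reported here. Same-numbered Ctrl, TPL and DAC libraries deviated together (correlations 0.2 to 0.79). Replicates 1 and 2 also did so across numbers, as in Ctrl replicate 2 with DAC replicate 1 (0.51) and TPL replicate 2 with DAC replicate 1 (0.59). Replicate 3 correlated at -0.74 to -0.23 with replicates 1 and 2 of the other 2 groups. The correlations thus set replicate 3 apart but do not pair replicates 1 and 2 by number.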

Additional observations from a re-analysis of the deposited data

How the results depend on the processing

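The DACTPL against Ctrl comparison had 2141 calls. The counts ranged from 1146 to 2339 when 1 Ctrl or DACTPL library was left out, with 828 to 1464 higher and 318 to 875 lower. Limma on unscaled TPM called 4764 genes with a pseudocount of 1 (783 higher, 3981 lower) and 4643 with 0.1 (772 higher, 3871 lower), with the median of all genes at -0.11 and -0.14. Rescaled TPM gave 2054 calls. DACTPL against DAC gave 84 calls with DESeq2, 9 with the length trend taken off and 0 to 11 without 1 library, and DACTPL against TPL gave 955 to 3285 without 1 library. The cause was not tested. With the replicate number as a block, the calls were 3396 (1370 lower) against Ctrl, 580 against DAC and 2579 against TPL. Deviations of same-numbered Ctrl and DACTPL libraries correlated at -0.1, -0.11 and 0.25, those of DAC and DACTPL at 0.32, -0.22 and 0.29, and those of TPL and DACTPL at 0.44, -0.42 and 0.31, so the numbers do not pair DACTPL with any group. Of the 151 named calls, 147 held with RLE scaling, 149 with DESeq2, 137 with the length trend off, 140 on rescaled TPM and 103 to 138 with 1 library left out. SCARNA16 reversed to -0.14 on unscaled TPM with either pseudocount. The 3 libraries of a group limit what the test can detect, and genes below 0.1 CPM rest on single counts.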

Other observations

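A pair of genes had a wide spread between DACTPL libraries, noticed after their values were seen. POLR2A, the largest subunit of RNA polymerase II, had 73.5, 60.4 and 77 CPM in Ctrl against 45.7, 195 and 105 CPM in DACTPL (edgeR adjusted p = 0.425). MKI67, a proliferation marker, had 389.8, 339 and 279.6 CPM in Ctrl against 252, 591 and 413 CPM in DACTPL (edgeR adjusted p = 0.5). In both genes DACTPL replicate 2 was the highest and DACTPL replicate 1 the lowest of the 6 libraries.

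Chromosome X had 527 tested genes, of which 62 rose (11.8%) and 12 fell (2.28%), beside 8.64% and 4.83% over all tested genes. The rises include genes with no counts in Ctrl. Because these passed the count filter through a group in which they were higher, the share of rises is a description. The reference placed 17 genes with no counts in Ctrl and at least 10 in each DACTPL library on the chromosome, and 1 of them was not called. GAGE2D and GAGE8, which it placed on no chromosome, are not among the 17. Chromosome 11, with 0 genes of that kind, had 10.9% rises and 2.9% falls.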
